A study of Mus musculus with 15 samples.

Results

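Prlr, Oxtr, Avpr1a and Avpr1b are 4 of the 32285 genes in the count matrices, and they were taken by name as the receptors of the prolactin, oxytocin and vasopressin systems. Prlr encodes the prolactin receptor, a cytokine receptor that signals through the kinase Jak2 and the Stat5 transcription factors. Oxtr encodes the oxytocin receptor, and Avpr1a and Avpr1b encode the V1a and V1b vasopressin receptors, all of which couple to Gq proteins and phospholipase C. In the rodent brain, prolactin receptors of the choroid plexus have long been linked to the passage of blood-borne prolactin into cerebrospinal fluid, hippocampal oxytocin receptors are known from CA2 and CA3 pyramidal neurons and from interneurons, and the V1b receptor is the classical vasopressin receptor of CA2, a field tied to social memory.

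Single-nucleus RNA sequencing was carried out on micropunches of the dorsal hippocampal formation (dHF) from 15 C57BL6/J female mice, 1 library per mouse. The nulliparous (NP) group held 6 age-matched virgin mice. The control reproductive experience (RE) group held 4 mice that had been through breeding, pregnancy, birth, lactation and contact with pups, and the stress RE group held 5 mice with the same history plus daily separation from the pups and limited nesting material during lactation. The mice of both RE groups were profiled after weaning, so no value below comes from a pregnant or lactating animal, and no group carried a transgene or a deletion. The labels name 3 batches, and every group is spread over batches 2 and 3, while batch 1 lacks control RE.

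The libraries held 40602582 to 96211264 unique molecular identifiers (UMIs, each standing for 1 captured RNA molecule) over 134019 barcodes, of which 123913 nuclei were kept. Of 131768 distinct barcode sequences, 2211 occurred in more than 1 library. The nuclei were sorted into 29 classes from marker genes, and the 4 receptors were left out of the genes used for clustering, so that their levels did not enter the definition of a class. Another 689 interneurons took no subtype name. They included a sub-cluster of 17 nuclei that scored highest on the Sst list but was below the 20 nuclei required for a name. A further 4232 nuclei (3.42%) lay in clusters that were left without a name. Levels are given as CPM, the UMIs of a receptor divided by the UMIs of all genes in the nuclei of a class from 1 mouse and scaled to counts per 1e+06, with the mean ± SD over mice that had at least 10 nuclei of the class. Levels of different genes were not compared, since 3′ counts are not scaled per length. The long and short isoforms of Prlr cannot be told apart in these counts.

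The classes in which the receptors were highest carried their defining markers. Choroid plexus epithelium had Ttr (transthyretin) at 11320 ± 8264 CPM, Kl (Klotho) at 594 ± 82.5 CPM and Folr1 (a folate receptor) at 203 ± 41.1 CPM (n = 13). CA2 pyramidal neurons had Ptpn5 at 287 CPM, Ntf3 at 165 CPM, Rgs14 at 70.8 CPM and Amigo2 at 59.7 CPM (n = 15), the 4 of 8 CA2 markers that were highest in this class. The other 4, Necab2, Cacng5, Pcp4 and Map3k15, were at 60.8 to 90.1 CPM in CA2, above the median class, and highest in habenular neurons, the Cpa6 and Ano2 cluster, striatal projection neurons and choroid plexus. Sst interneurons had Sst at 363 CPM (n = 15), and Sst, Npy, Elfn1 and Crhbp were highest there. Their markers Grin3a and Lhx6 were highest in oligodendrocyte precursor cells and Lamp5 interneurons. Lamp5 interneurons had Lamp5 at 136 CPM and Id2 at 76.1 CPM (n = 15), both highest there. Their Ndnf, at 176 CPM, Reln and Kit were highest in Cajal-Retzius neurons, and Npy in Sst interneurons. Markers of the choroid plexus, thalamus, habenula and striatum were found in clusters of their own. So were markers of thalamic, pretectal or hypothalamic GABAergic neurons, in the cluster led by Mecom and Pax3. The punches thus also held nuclei from outside the hippocampal formation, and the receptor levels of those nuclei are given as such.

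The number of UMIs behind each receptor sets how finely it could be followed. Prlr gave 17163 UMIs in 7465 nuclei, Oxtr 308 UMIs in 282 nuclei, Avpr1b 179 UMIs in 142 nuclei and Avpr1a 64 UMIs in 62 nuclei. Prlr lies on chromosome 15 (GRCm38, positions 10177238 to 10349180, plus strand), Oxtr on chromosome 6 (112473683 to 112489943, minus strand), Avpr1a on chromosome 10 (122448499 to 122453452, plus strand) and Avpr1b on chromosome 1 (131599239 to 131612000, plus strand). In the GENCODE annotation 1 other gene model, Gm21973, overlaps Prlr on the same strand, and it has no row of its own in the matrices. Detections of more than 1 receptor in a nucleus were few, with 37 nuclei for Prlr and Oxtr, 6 for Oxtr and Avpr1b and none for Avpr1a and Avpr1b.

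Promoter windows are shown for Prlr and Oxtr because the prolactin receptor acts through Stat5 and because oxytocin receptor expression is known to respond to oestrogen, a hormone of pregnancy. Each window surrounds a RefSeq transcription start (GRCm38.p6) and is written 5′ to 3′ on the strand of the gene. They were searched on both strands for TTCNNNGAA, the Stat site, and for AGGTCA, the oestrogen receptor half-site, and these motifs were chosen with the matches known. Of 32851 such windows, 8.30% held TTCNNNGAA and 16.3% held AGGTCA. Of the 5 receptor windows (3 for Prlr, 1 each for Oxtr and Avpr1a), 1 Prlr window and the Oxtr window held a match, printed in capitals. A match is a run of letters and was not tested as a binding site.
Prlr, chr15:10223656-10223955, plus strand: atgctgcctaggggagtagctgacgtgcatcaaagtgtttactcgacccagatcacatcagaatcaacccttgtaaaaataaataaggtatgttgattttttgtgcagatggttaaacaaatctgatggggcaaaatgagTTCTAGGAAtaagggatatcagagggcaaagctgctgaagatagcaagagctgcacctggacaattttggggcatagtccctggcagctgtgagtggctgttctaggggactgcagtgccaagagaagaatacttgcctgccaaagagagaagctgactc
Oxtr, chr6:112489776-112490075, minus strand: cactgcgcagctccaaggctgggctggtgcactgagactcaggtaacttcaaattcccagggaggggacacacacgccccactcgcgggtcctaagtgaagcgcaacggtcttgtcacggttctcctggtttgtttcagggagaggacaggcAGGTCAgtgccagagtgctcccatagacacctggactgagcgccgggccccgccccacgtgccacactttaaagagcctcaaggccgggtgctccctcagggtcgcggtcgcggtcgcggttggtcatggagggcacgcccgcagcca

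The highest level of Prlr was in choroid plexus epithelium, the secretory lining of the ventricles. In the NP group Prlr stood at 658 CPM in mouse 27, 679 CPM in mouse 31, 944 CPM in mouse 35, 1407 CPM in mouse 37 and 725 CPM in mouse 73. In the control RE group it stood at 893, 1132, 1756 and 853 CPM in mice 66, 72, 87 and 88, and in the stress RE group at 709, 1341, 680 and 921 CPM in mice 43, 75, 77 and 90. Every one of these 13 values was above the Prlr level of every other class with at least 10 nuclei in any mouse, the highest of which was 348 CPM. NP mouse 63 and stress RE mouse 70 had 6 and 2 choroid plexus nuclei and were left out. The mean was 977 ± 340.1 CPM (n = 13), and 91.3% of 809 nuclei held at least 1 Prlr UMI at a median depth of 5896 UMIs. With each nucleus thinned to 1000 UMIs the share was 54.8%, against 0.564% of oligodendrocytes (1.32% unthinned, at a median depth of 2514 UMIs). Oligodendrocytes were taken for comparison only, and whether their Prlr was their own was not tested.

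**Figure D1:**
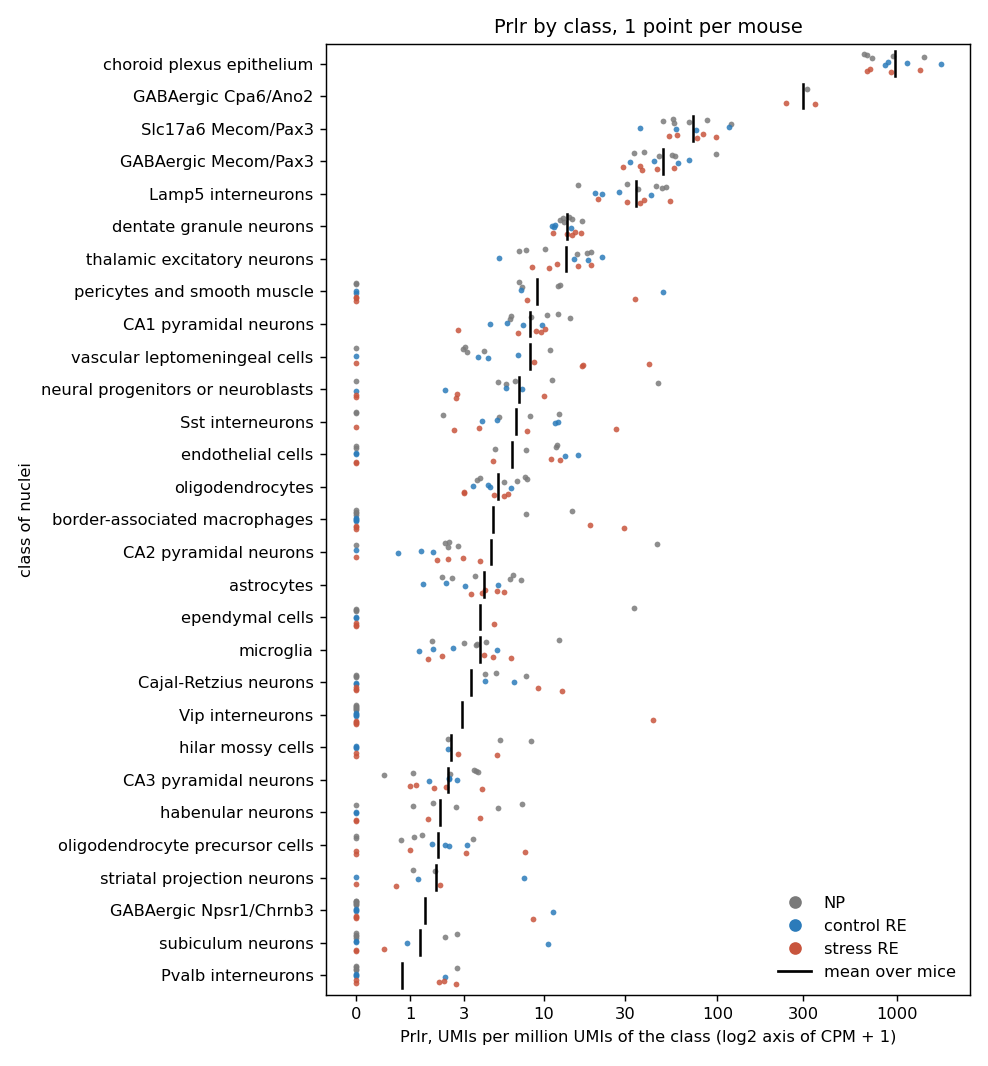
Prlr level of each class in CPM (horizontal axis, log2 of CPM + 1), 1 point per mouse with at least 10 nuclei of the class, coloured by group, with a bar at the mean over mice. Choroid plexus epithelium lies at 658 to 1756 CPM, followed by 4 neuronal classes at means of 302, 73.1, 49.6 and 34.8 CPM, and dentate granule neurons at 13.8 CPM.

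The highest neuronal level of Prlr was in a small GABAergic cluster led by Cpa6 and Ano2, which carried Gad1 at 287 CPM, Gad2 at 351 CPM and Slc32a1, the vesicular GABA transporter, at 79.8 CPM. Prlr was at 315 CPM in NP mouse 35, 242 CPM in stress RE mouse 75 and 348 CPM in stress RE mouse 77. These mice supplied 52, 137 and 51 of the 259 nuclei of the cluster, and no other mouse had more than 8, so no control RE mouse entered the mean of 302 ± 54.1 CPM (n = 3). A Prlr UMI was present in 78.0% of these nuclei, and in 23.9% at 1000 UMIs. The 8 sub-clusters ranged from 104 to 545 CPM, so that none was without Prlr.

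The next classes in the order came from 1 cluster in which Mecom and Pax3 were among the leading genes, and which was divided by transmitter genes. Before this division, the marker list that the cluster matched best was that of thalamic, pretectal or hypothalamic GABAergic neurons, with 7 of 7 markers detected. Mecom or Pax3 was among the leading genes of sub-clusters of its GABAergic part and of none of its Slc17a6 part, whose sub-clusters were led by other genes such as Tfap2b, Tfap2d, Ebf2 and Pax6, so the plots name that part after the shared cluster and not after its own leading genes. The class with Slc17a6, the vesicular glutamate transporter of thalamus and midbrain, had a mean Prlr level of 73.1 ± 24.1 CPM (n = 15), with 36.7 CPM in the lowest mouse, a median of 69.3 CPM and 119 CPM in the highest. The class with Gad1 and Gad2 had a mean of 49.6 ± 17.8 CPM (n = 15), with 29.4, 45.9 and 98.2 CPM as the lowest, median and highest values. The difference between these classes was in the same direction in 12 of 15 mice and did not pass the threshold (exact sign permutation test over mice, two-sided, adjusted p = 0.136 over the 105 neighbouring pairs tested). Prlr was uneven within both: sub-clusters of the GABAergic class ran upward from 3.05 CPM in 66 nuclei, with 122.7 CPM in the 302 nuclei that held the most Prlr UMIs (436), and those of the Slc17a6 class from 0 in 79 nuclei to 167 CPM in 129 nuclei led by Pax6.

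Among the interneuron classes, which were not divided into hippocampal and cortical ones, Prlr was highest in the Lamp5 class, which holds neurogliaform cells. The mean was 34.8 ± 12.1 CPM (n = 15), with 16.0 CPM in the lowest mouse, a median of 35.8 CPM and 54.3 CPM in the highest. Lamp5 interneurons were higher than dentate granule neurons, the next class in the order, in 15 of 15 mice by 1.21 on the log2(CPM + 1) scale (exact sign permutation test, adjusted p = 0.00641), 1 of the 2 neighbouring pairs past the threshold. With every nucleus thinned to 1000 UMIs the difference was -0.04 and the call was lost. Few Prlr UMIs per mouse were left in the Lamp5 class at that depth, and log2(CPM + 1) is unstable at such counts. The thinned value therefore does not decide this pair. Most of that level lay in 1 sub-cluster of 200 nuclei led by Lamp5, Sv2c, Pde11a, Hcrtr2 and Tacr1, which was singled out after its value was seen. It held 313 of the 397 Prlr UMIs of the class, 121 CPM, with a Prlr UMI in 46.5% of nuclei and in all 15 mice. The other 725 Lamp5 nuclei were at 9.52 ± 5.58 CPM and lay below the granule neurons of the same mouse in 12 of 15 mice.

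Dentate granule neurons, the most numerous hippocampal class, had Prlr at a low level that varied little between mice. The mean over 15 mice was 13.8 ± 1.86 CPM, with 11.3 CPM in the lowest mouse, a median of 13.9 CPM and 17.0 CPM in the highest. Because of their number they supplied 4310 UMIs, 25.1% of all Prlr UMIs, beside 29.7% from the 0.653% of nuclei that were choroid plexus. Thalamic excitatory neurons had a like mean of 13.7 ± 5.26 CPM, and the granule neurons were above them in 7 of 15 mice (exact test, adjusted p = 1, the difference 0.09 ± 0.58 on the log2 scale). CA1 pyramidal neurons were at 8.28 ± 3.04 CPM, CA3 at 2.24 ± 1.11 CPM and CA2 at 4.65 ± 11.5 CPM.

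The CA2 value rested on 1 mouse, since 13 of the 37 Prlr UMIs of that class came from NP mouse 35, at 45.8 CPM over 14 nuclei. Without that mouse the CA2 mean was 1.71 ± 1.19 CPM (n = 14). Over 26 pairs of classes that were added after the levels had been seen (exact sign permutation test, Benjamini-Hochberg over the 26), granule neurons were higher than CA1 in Prlr in 15 of 15 mice (0.74 on the log2 scale, adjusted p = 0.000227) and higher than CA3 in 15 of 15 mice (2.26, adjusted p = 0.000227). Of the 26 added pairs 18 passed. At 1000 UMIs per nucleus 5 passed, all of them for Prlr: granule neurons over CA2 and over CA3, CA1 over CA2, choroid plexus over the Slc17a6 class, and CA3 over CA2, which had not passed before. For the other receptors too few mice kept UMIs at that depth for the exact test to pass. Granule neurons over CA1 and CA1 over CA3 lost the call at that depth (exact test, adjusted p = 0.0674 and 0.215). Their differences there were 1.22 ± 1.74 and 0.90 ± 1.73 on the log2 scale, where the SDs without thinning were 0.55 and 0.62. CA1 was higher than CA3 in 15 of 15 mice as well (1.52, exact test, adjusted p = 0.000227). CA2 and CA3 did not differ beyond their spread (-0.05 ± 1.19, higher in 6 of 15 mice, exact test, adjusted p = 1). Passing over the Cpa6 and Ano2 cluster, which had too few mice for a test, choroid plexus epithelium stood above the Slc17a6 class in 13 of 13 mice by 3.68 (exact test, adjusted p = 0.000529).

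Prlr in glia and vessels was low and was read beside Ttr, an abundant transcript of the choroid plexus that those cells are not known to make in quantity. In choroid plexus nuclei there were 9.08 Prlr UMIs per 100 Ttr UMIs. The ratio was 9.21 in astrocytes, 7.597 in oligodendrocytes, 6.03 in microglia, 7.17 in pericytes and smooth muscle and 3.22 in endothelial cells. It was 63.6 in dentate granule neurons, 67.0 in CA1, 124 in thalamic excitatory neurons, 270.1 in Lamp5 interneurons, 687 in the Cpa6 and Ano2 cluster and 878 in the Slc17a6 class. Not all neurons were far above the choroid plexus ratio. Striatal projection neurons, at 3.60, and Pvalb interneurons, at 5.38, lay below it. Cajal-Retzius neurons were at 10.8, habenular neurons at 12.8, subiculum neurons at 13.8, Vip interneurons at 14.6 and CA3 at 18.2. Ependymal cells, which line the same ventricles, had Ttr at 1087 CPM and 3 Prlr UMIs, a ratio of 0.312. The Ttr UMIs of a class were multiplied by the Prlr to Ttr ratio of choroid plexus nuclei of the same mouse and taken away from Prlr. Oligodendrocytes then stood at 1.21 CPM and astrocytes at 0.775 CPM, over the mice that had at least 10 choroid plexus nuclei. Their means without the subtraction, over all 15 mice, were 5.13 and 4.12 CPM. Granule neurons stood at 10.9 CPM and Lamp5 interneurons at 32.1 CPM under the same subtraction. The subtraction takes every Ttr UMI to come with Prlr at the choroid plexus ratio. Ependymal, endothelial and vascular leptomeningeal cells (ratio 3.57) held less Prlr than that ratio would give, so it can take away too much. How much of the Prlr in glia was free RNA from the choroid plexus was not tested.

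**Figure D2:**
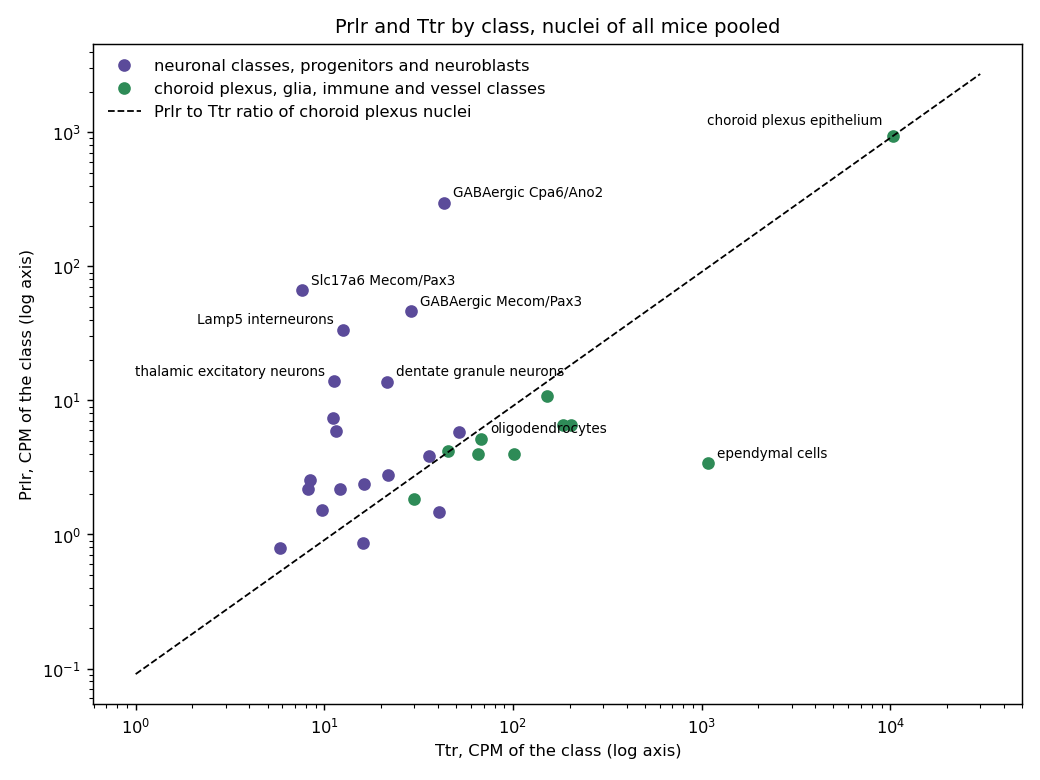
Prlr against Ttr in CPM with the nuclei of all mice pooled, 1 point per class, both axes logarithmic, and a dashed line at the ratio of 9.08 Prlr UMIs per 100 Ttr UMIs of choroid plexus nuclei. Glial, immune and vessel classes lie near or below the line, while the Cpa6 and Ano2 cluster, both classes from the Mecom and Pax3 cluster, Lamp5 interneurons, granule and thalamic neurons lie above it. Striatal projection neurons and Pvalb interneurons lie below the line, and Cajal-Retzius and habenular neurons lie near it.

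Oxtr was sparse and was spread over many classes. The 10 classes with the highest means included the Sst, Pvalb, Lamp5 and Vip interneurons and the CA2 and CA3 fields. The others were the Cpa6 and Ano2 cluster (16 UMIs), the Slc17a6 class (16 UMIs), hilar mossy cells (6 UMIs) and ependymal cells (1 UMI). Granule neurons, at a low level, held 26 of the 308 Oxtr UMIs, and CA1 held 13. The class with the highest mean was Sst interneurons, the dendrite-targeting interneurons that make somatostatin, at 4.08 ± 2.08 CPM (n = 15), with 1.74 CPM in the lowest mouse, a median of 4.06 CPM and 8.74 CPM in the highest. All 15 mice had at least 1 Oxtr UMI in this class, 36 UMIs over its 472 nuclei. Oxtr was uneven within the class, with 23 UMIs in a sub-cluster of 191 nuclei, 10 in one of 133 and 3 in one of 148. The share of nuclei with an Oxtr UMI was 5.93% at a median depth of 15772 UMIs, against 0.0732% of granule neurons at 7987 UMIs. At 1000 UMIs per nucleus the shares were 0.212% and 0.0148%, which is 1 nucleus of the Sst class, so no order can be read at that depth.

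CA2 pyramidal neurons had Oxtr at 2.41 ± 1.62 CPM (n = 15) from 33 UMIs, with UMIs in every mouse but NP mouse 35. CA3 pyramidal neurons were at 0.725 ± 0.395 CPM, with UMIs in all 15 mice, and because of their number they held 59 UMIs, 19.2% of all Oxtr UMIs and the largest count of any class. CA2 was higher than CA3 in 13 of 15 mice (0.87 on the log2 scale, exact test, adjusted p = 0.00529 over the 26 added pairs). CA3 was higher than CA1, at 0.198 ± 0.286 CPM, in 14 of 15 mice (0.52, exact test, adjusted p = 0.000289) and higher than granule neurons, at 0.0848 ± 0.0474 CPM, in 15 of 15 (0.64, exact test, adjusted p = 0.000227). CA1 and granule neurons did not differ beyond their spread (exact test, adjusted p = 0.240, CA1 higher in 10 of 15 mice). No Oxtr pair passed at 1000 UMIs per nucleus, where CA2 was left with no Oxtr UMI and CA2 less CA3 was -0.37. Too few mice differed at that depth for the exact test to pass.

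Between Sst interneurons and CA2 the Oxtr difference was 0.61 ± 1.06, higher in Sst in 9 of 15 mice, and did not pass the threshold (exact test, adjusted p = 0.0575). Pvalb interneurons were at 1.96 ± 2.602 CPM (n = 14), Lamp5 at 1.59 ± 2.21 CPM and Vip at 1.39 ± 3.01 CPM (n = 15), and none of the 26 neighbouring pairs tested for Oxtr passed the threshold. The Cpa6 and Ano2 cluster was at 3.17 ± 1.80 CPM (n = 3). A sub-cluster of 134 interneurons led by Tac1, which scored alike on the Sst and Pvalb lists and so took neither name, had 20 Oxtr UMIs in 8 mice, 8.69 CPM with the mice pooled. It was singled out after its value was seen. Choroid plexus epithelium had no Oxtr UMI in 809 nuclei, which allows a share of up to 0.371% of nuclei with a UMI. Such limits cover counting error only.

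Avpr1b was found mostly in CA2. Its level there was 6.89, 2.11, 10.6, 10.51, 8.10 and 2.24 CPM in NP mice 27, 31, 35, 37, 63 and 73, then 13.4, 13.5, 10.0 and 7.89 CPM in control RE mice 66, 72, 87 and 88, and 17.1, 5.90, 10.1, 6.66 and 9.34 CPM in stress RE mice 43, 70, 75, 77 and 90. All 15 mice had at least 1 Avpr1b UMI in CA2, and the mean was 8.96 ± 4.03 CPM. CA2 made up 0.558% of nuclei and held 140 of 179 Avpr1b UMIs, 78.2%, in 106 of 692 nuclei.

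The share of CA2 nuclei with an Avpr1b UMI was 15.3% at a median depth of 19437 UMIs, against 0.187% of CA3 neurons at 16610 UMIs, and 0.434% against 0.0208% at 1000 UMIs. CA3 stood at 0.121 ± 0.128 CPM, CA1 at 0.0399 ± 0.0971 CPM and granule neurons at 0.0337 ± 0.0385 CPM. CA2 was higher than each of them in 15 of 15 mice, by 3.02 over CA3, 3.12 over CA1 and 3.13 over granule neurons (exact test, adjusted p = 0.000227 for each of the 3 pairs). At 1000 UMIs per nucleus CA2 was above each of them in 3 mice, at a mean of 7.34 CPM over all 15 mice. CA1 was above CA2 in 1 mouse. None of these pairs passed (exact test, adjusted p = 0.433 each). With so few mice that differed the test could not pass, so this depth does not decide them. In the order of class means the next class was subiculum neurons, with 1 UMI, and CA2 was above them in 12 of 13 mice (2.93, exact test, adjusted p = 0.0256, the other of the 2 neighbouring pairs past the threshold). At 1000 UMIs per nucleus this difference was 1.14 and the call was lost, at a depth where few mice kept an Avpr1b UMI in CA2. Leaving out any of 12 of the 15 mice took its adjusted p to as much as 0.0513 (exact test), while the difference stayed at 2.85 to 3.19. With 1 mouse fewer the smallest p that the exact test can give is larger. Interneurons had no Avpr1b UMI in the Sst, Pvalb, Vip or Lamp5 class.

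**Figure D3:**
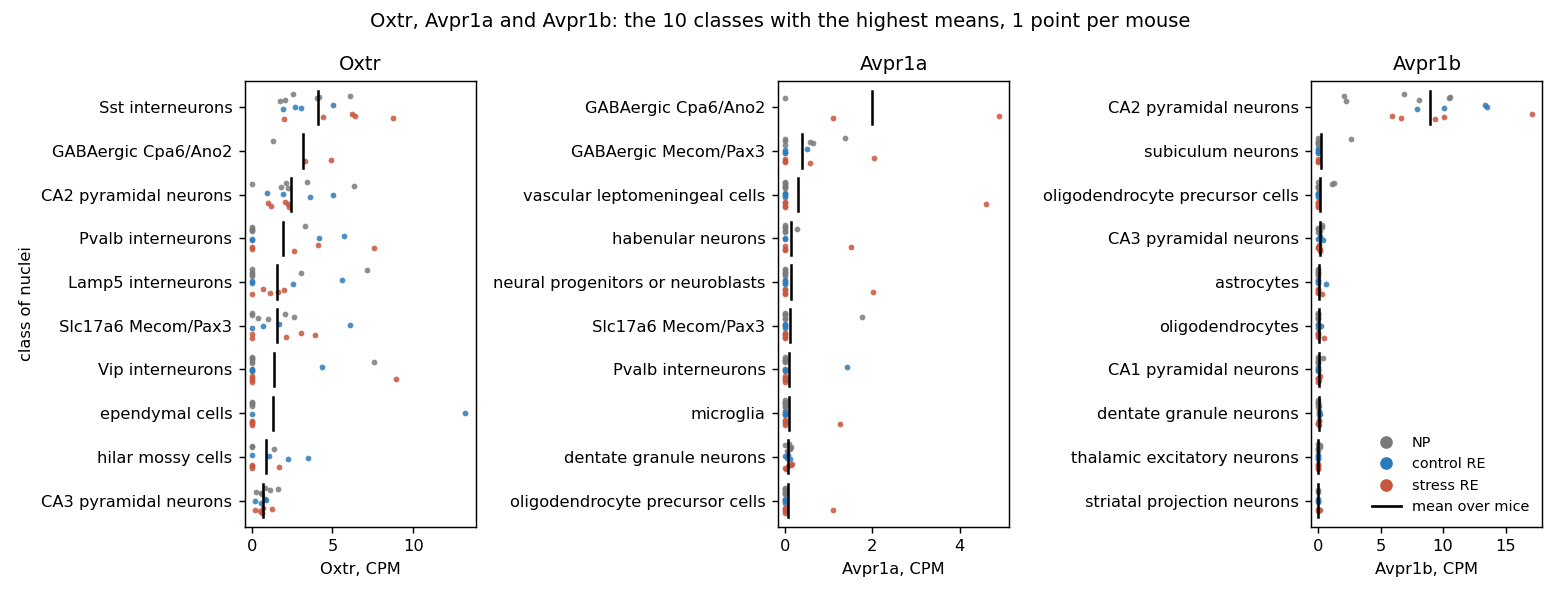
Oxtr, Avpr1a and Avpr1b in CPM (linear axes that differ between panels) in the 10 classes with the highest means, 1 point per mouse with at least 10 nuclei of the class, coloured by group, with a bar at the mean. Avpr1b stands out in CA2 pyramidal neurons at 2.11 to 17.1 CPM, Oxtr runs over interneurons, CA2, CA3 and other classes, and most Avpr1a values are 0.

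Avpr1a was at the limit of detection. The 64 UMIs of all 15 libraries were scattered over many classes. The largest counts were 25 in granule neurons (0.0763 ± 0.0546 CPM, n = 15), 11 in the GABAergic class led by Mecom and Pax3 (0.381 ± 0.609 CPM, n = 15) and 8 in the Cpa6 and Ano2 cluster. In that cluster 7 of the 8 came from stress RE mouse 75, at 4.89 CPM, with 1.10 CPM in stress RE mouse 77 and none in NP mouse 35, and the mean of 2.00 ± 2.56 CPM (n = 3) was 0.552 CPM without mouse 75. CA1, CA2 and CA3 had 1 UMI each, and granule neurons, a class of many more nuclei, were above CA1 in 11 of 15 mice (below in 1) and above CA3 in 12 (below in none). These pairs are 2 of the 18 that passed (exact test, adjusted p = 0.00555 and 0.000977). Each sets granule neurons against a class with 1 UMI in all, so they were not read as a difference in level. At 1000 UMIs per nucleus only 3 mice differed in each pair (exact test, adjusted p = 0.433), too few for the test to pass. Choroid plexus and the Sst, Vip and Lamp5 interneurons had no Avpr1a UMI, which at 472 Sst nuclei allows a share of up to 0.636%.

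By their pattern over the 29 class means (Pearson r on log2(CPM + 1), among 17936 genes, a description without a test), the genes most like Prlr were Macc1 at 0.81, Agxt2 at 0.80, Il17re at 0.77, 1700120E14Rik at 0.76 and Gm50314 at 0.75, of which all but 1700120E14Rik were highest in choroid plexus. Those most like Oxtr were Gm28447 at 0.73, 9630002D21Rik at 0.70, Npffr1 at 0.70, Sh3rf3 at 0.68 and Frmpd3 at 0.68. Those most like Avpr1a were Gm45576 at 0.90, Prdm12 at 0.88, Gm28703, Mogat1 and Gm29674 at 0.83, all highest in the Cpa6 and Ano2 cluster, where the Avpr1a level rested on stress RE mouse 75. Those most like Avpr1b were 1600002D24Rik at 0.87, Atp2c2 at 0.84, Tll2 at 0.83, Gm13849 at 0.73 and Gm44993 at 0.69, all highest in CA2. The classes share libraries and differ in depth, so these values describe the classes and not independent samples.

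Of the ligands, Prl gave 19 UMIs, Oxt 78 and Avp 325 over all nuclei. Whether the punches held any of the hypothalamic or pituitary cells known to make these hormones was not tested. Granule neurons held 18 of the Prl, 41 of the Oxt and 231 of the Avp UMIs, in 17, 39 and 214 of 35508 nuclei. The highest class mean of Avp was 2.55 ± 8.31 CPM in the GABAergic class led by Mecom and Pax3, with an SD above its mean. Among genes of prolactin receptor signalling, Cish, an inhibitor that Stat5 switches on, was at 34.8 ± 14.0 CPM in choroid plexus (n = 13) and 0.289 ± 0.103 CPM in granule neurons (n = 15), and Stat5a was at 16.2 ± 8.97 CPM and 0.234 ± 0.113 CPM. Choroid plexus was the class with the highest mean for both, and for no other of the 10 genes of that list. Jak2 was at 36.0 ± 7.42 CPM in choroid plexus, rank 22 of the 29 classes, and at 40.2 ± 3.26 CPM in granule neurons, and it was highest in oligodendrocytes. In choroid plexus Stat5b, at 128.0 ± 19.4 CPM, and Socs3 ranked 4, Socs1 and Ptpn6 ranked 3, Socs2 ranked 5, Stat3 ranked 10 and Ptpn11 ranked 16. Ghr, the related growth hormone receptor, was at 253 ± 61.1 CPM in choroid plexus, 551 ± 44.1 CPM in the Cpa6 and Ano2 cluster (n = 3) and 76.5 ± 5.87 CPM in granule neurons.

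Whether the level of a receptor differed with reproductive experience or with stress was asked next, within each class and in the whole punch, with UMIs summed per mouse (edgeR quasi-likelihood test with Benjamini-Hochberg adjustment over all genes of a fit). No receptor passed an adjusted p of 0.05 in any comparison. Within named classes 11 receptor tests could be made in each comparison, 10 for Prlr and 1 for Avpr1b in CA2. Receptors called numbered 0 for control RE against NP (background over all genes and classes 0%), 0 for stress RE against control RE (background 0.000444%) and 0 for stress RE against NP (background 0%). In the whole punch, where Prlr, Oxtr and Avpr1b were tested, the counts were also 0, against backgrounds of 0.00472%, 0% and 0%. At an unadjusted p of 0.05 none of the 11 passed within classes by edgeR or by DESeq2 in any comparison, and in the whole punch 1 of 3 passed by either tool for control RE and for stress RE against NP and none for stress RE against control RE. Over all genes edgeR passed 3.98%, 4.02% and 0.850% of whole-punch tests in these comparisons at that p, and 3.19%, 3.76% and 2.93% within classes. The receptors thus stood with nearly all genes, since edgeR called 1 or 0 genes in each of these comparisons and DESeq2 0 to 49.

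For Prlr in choroid plexus, the NP mice ran from 658 to 1407 CPM, the control RE mice from 853 to 1756 CPM and the stress RE mice from 680 to 1341 CPM, so that the 3 groups overlapped. The means were 883 ± 314 CPM (n = 5), 1158 ± 417 CPM (n = 4) and 913 ± 305 CPM (n = 4). The fitted log2 difference was 0.41 for control RE against NP, with a 95% interval of -0.13 to 0.96, -0.35 (-0.93 to 0.23) for stress RE against control RE and 0.06 (-0.48 to 0.60) for stress RE against NP (adjusted p of 1.00 in each, n = 4 to 5). Without control RE mouse 87, the highest, the first difference was 0.14 and the second -0.071, and without NP mouse 37 the first was 0.62 and without stress RE mouse 75 the second was -0.60. Within batches, control RE over NP was 0.07 in batch 2, with 1 NP mouse, and 0.31 in batch 3 on the log2(CPM + 1) scale. Batch 1 had no control RE mouse, and its stress RE mouse had too few choroid plexus nuclei.

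For Prlr in granule neurons, 3 of the 4 control RE mice lay at 11.3 to 11.7 CPM, below every NP mouse (12.6 to 17.0 CPM), and the remaining control RE mouse, 88, was at 14.7 CPM. The stress RE mice ran from 11.4 to 16.8 CPM. Control RE against NP gave -0.15 (-0.45 to 0.15) and stress RE against control RE 0.22 (-0.09 to 0.53), with adjusted p of 0.938 and 1.00. Without control RE mouse 88 these were -0.25 and 0.33, and without NP mouse 63 the first was -0.070. The direction was negative as well within batches 2 and 3, at -0.27 and -0.15 for control RE against NP. In the GABAergic class led by Mecom and Pax3 the 3 differences were 0.03 (-0.51 to 0.56), -0.32 (-0.87 to 0.24) and -0.29 (-0.80 to 0.22) in the same order of comparisons as above. Without control RE mouse 66 the first 2 were -0.18 and -0.12, without control RE mouse 87 they were 0.21 and -0.51, and the third was -0.17 without NP mouse 35 and as much without stress RE mouse 70. On the log2(CPM + 1) scale, control RE over NP in this class was -0.47 and -0.17 within batches 2 and 3. There stress RE over control RE was -0.31 and -0.11. Stress RE over NP was -0.29, -0.78 and -0.28 in batches 1, 2 and 3. The 3 differences in Lamp5 interneurons were -0.42 (-1.06 to 0.22), 0.31 (-0.34 to 0.96) and -0.11 (-0.68 to 0.47). Within batches 2 and 3, control RE over NP in Lamp5 interneurons was -0.58 and -0.78, stress RE over control RE was 0.10 and 0.57, and stress RE over NP was 0.69, -0.47 and -0.21 in batches 1, 2 and 3, on the log2(CPM + 1) scale. Without control RE mouse 88 the fitted Lamp5 difference between control RE and NP was -0.69 and that between stress RE and control RE 0.57, and the latter was 0.15 without stress RE mouse 75. In the other classes tested, CA1, CA3, astrocytes, oligodendrocytes, thalamic excitatory neurons and the Slc17a6 class, the fitted differences lay between -0.57 and 0.48.

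**Figure D4:**
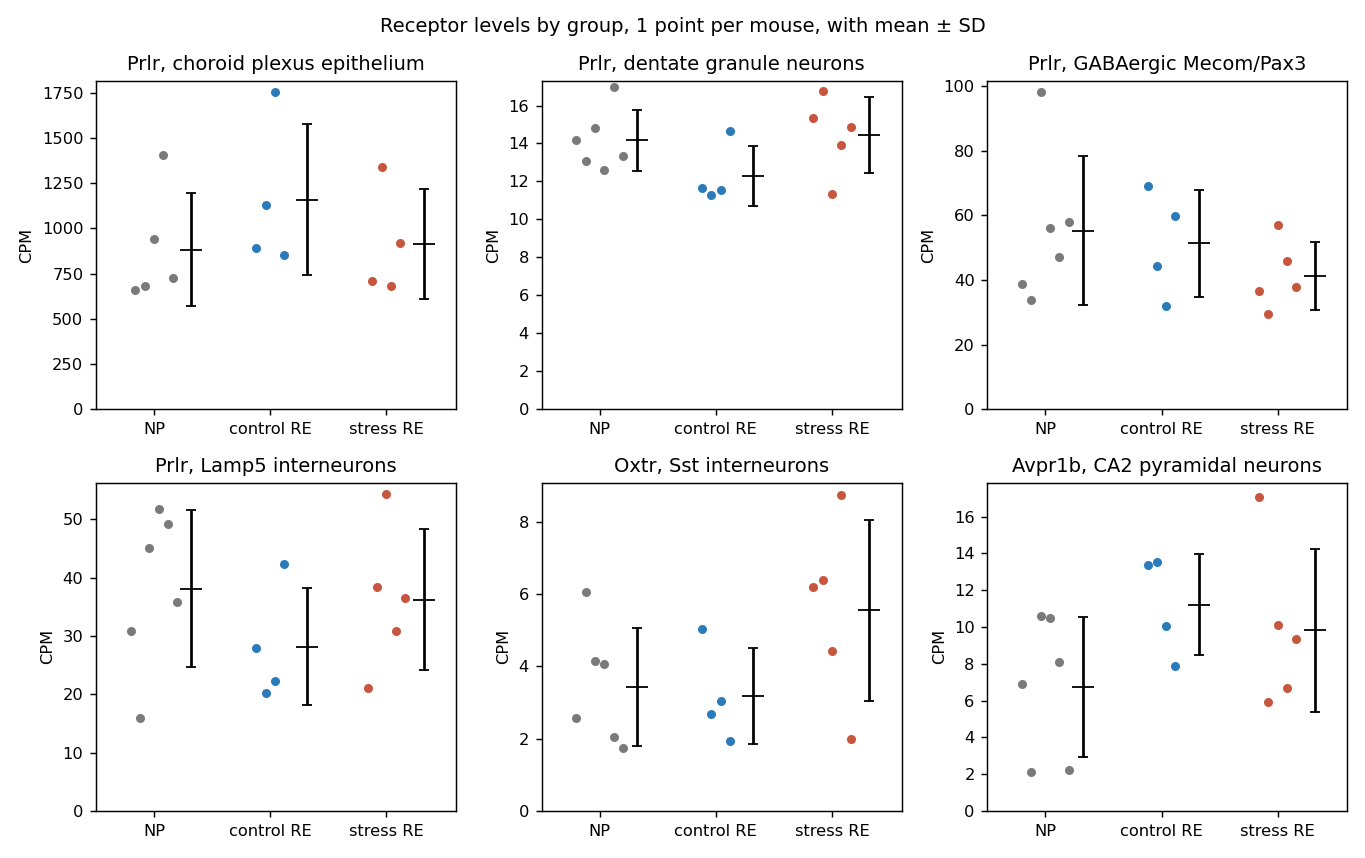
Receptor levels in CPM by group in 6 pairs of receptor and class, 1 point per mouse with at least 10 nuclei of the class, with the mean ± SD beside the points and axes that start at 0. The groups overlap in every panel, and 3 of the 4 control RE mice lie at 11.3 to 11.7 CPM for Prlr in granule neurons.

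For Avpr1b in CA2 the means were 6.74 ± 3.81 CPM in NP (n = 6), 11.2 ± 2.74 CPM in control RE (n = 4) and 9.82 ± 4.43 CPM in stress RE (n = 5). The lowest values, 2.11 and 2.24 CPM, were those of NP mice 31 and 73, each from 1 UMI, and the other NP mice lay within the range of the RE groups. Control RE against NP gave 0.79 (-0.07 to 1.65) and stress RE against NP 0.62 (-0.20 to 1.44), with adjusted p of 0.934 and 0.775, and the latter was 0.31 without stress RE mouse 43. Within batches, control RE over NP was 0.18 in batch 2 and 0.78 in batch 3, and stress RE over NP was 0.33, -0.20 and 0.98 in batches 1, 2 and 3.

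In the whole punch Avpr1b had the lowest unadjusted p of the receptors. NP mice held 1 to 11 Avpr1b UMIs, at 0.0135 to 0.161 CPM, control RE mice 11 to 23 UMIs, at 0.159 to 0.347 CPM, and stress RE mice 7 to 29 UMIs, at 0.132 to 0.335 CPM. The lowest control RE mouse, 87, lay just below the highest NP mice, and so did stress RE mouse 70. The difference was 1.24 (0.31 to 2.17) for control RE against NP and 1.13 (0.24 to 2.02) for stress RE against NP, with adjusted p of 0.928 and 0.999, so neither passed. The share of CA2 nuclei moved in the same direction, with means of 0.438% ± 0.220 for NP, 0.614% ± 0.205 for control RE and 0.682% ± 0.152 for stress RE. Within CA2 nuclei, which held 140 of the 179 Avpr1b UMIs, the difference was 0.79 for control RE and 0.62 for stress RE against NP. Neither of those passed the threshold. A whole punch sums the number of nuclei and the RNA per nucleus, and the part of each in this result was not tested. Oxtr in the whole punch was at 0.311 ± 0.0968, 0.298 ± 0.0827 and 0.373 ± 0.142 CPM in the 3 groups, with differences of 0.04 (-0.59 to 0.68) for control RE against NP and 0.29 (-0.36 to 0.94) for stress RE against control RE. The latter was 0.13 without control RE mouse 87 and 0.47 without stress RE mouse 90.

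Prlr in the whole punch was at 19.5 ± 4.65 CPM in NP (n = 6), 15.8 ± 4.68 CPM in control RE (n = 4) and 17.4 ± 5.03 CPM in stress RE (n = 5), with overlapping ranges of 14.9 to 27.8, 10.7 to 21.5 and 12.3 to 25.4 CPM. The difference was -0.24 (-0.70 to 0.23) for control RE against NP, 0.12 (-0.36 to 0.59) for stress RE against control RE and -0.12 (-0.55 to 0.31) for stress RE against NP. The first was -0.086 without control RE mouse 72 and -0.43 without control RE mouse 87, the second -0.035 and 0.31 without the same mice, and the third 0.011 without NP mouse 35 and -0.25 without stress RE mouse 75. The choroid plexus supplied from 0.924% of Prlr UMIs in stress RE mouse 70, with 2 such nuclei, to 51.1% in NP mouse 35, with 144. Without choroid plexus nuclei the group means were 13.4 ± 2.45, 10.8 ± 2.39 and 13.1 ± 2.00 CPM, a smaller spread in each group, and the difference was -0.25 (-0.63 to 0.12) for control RE against NP, 0.27 (-0.12 to 0.65) for stress RE against control RE and 0.01 (-0.33 to 0.36) for stress RE against NP. Nuclei of other classes with Prlr remained in these sums. The Slc17a6 class averaged 1.91% ± 1.92 of nuclei in NP and 0.969% ± 1.07 in control RE. The GABAergic class led by Mecom and Pax3 averaged 2.66% ± 1.76 and 1.96% ± 0.986, and granule neurons 27.8% ± 5.24 and 31.3% ± 5.21. The part of these shares in the difference was not tested.

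The share of choroid plexus nuclei itself averaged 0.774% ± 0.579 for NP, 0.510% ± 0.343 for control RE and 0.601% ± 0.373 for stress RE, and the 3 comparisons did not pass an exact permutation test over mice (two-sided, adjusted p = 0.706 for each). The difference of -0.265 percentage points between control RE and NP was -0.0777 without NP mouse 35, which had the highest share, and -0.423 without control RE mouse 66. Within batch 2 control RE lay 0.603 percentage points below NP and within batch 3 it lay 0.00790 above.

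**Figure D5:**
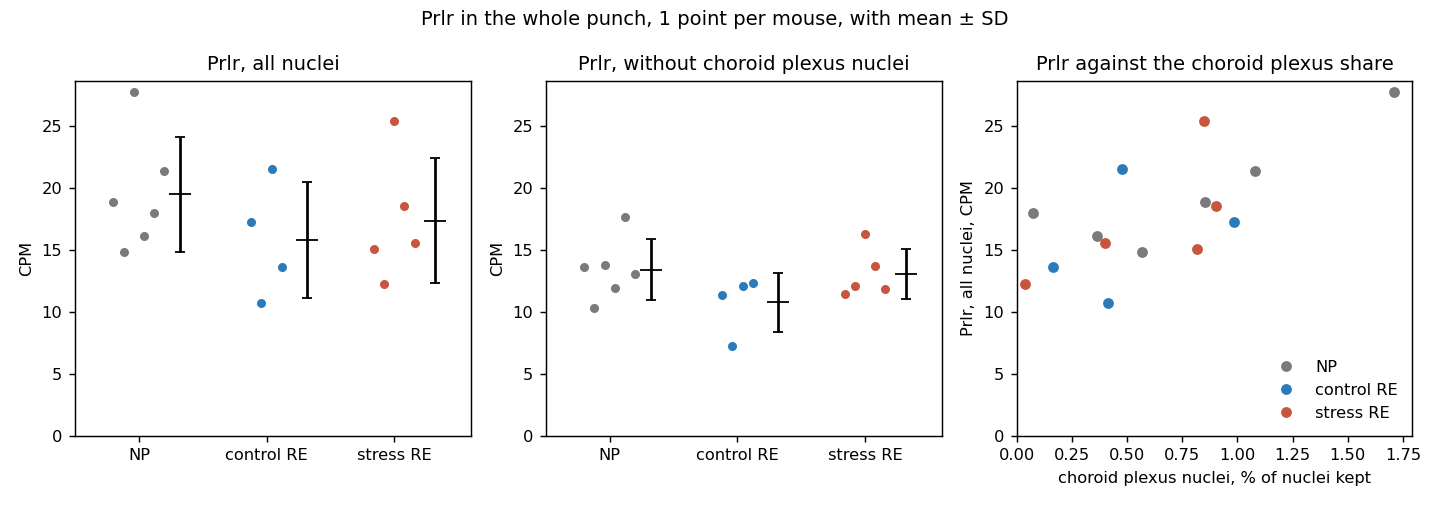
Prlr of the whole punch in CPM by group with all nuclei (left) and without choroid plexus nuclei (middle), 1 point per mouse with mean ± SD, and against the percentage of choroid plexus nuclei (right). The means of 19.5, 15.8 and 17.4 CPM become 13.4, 10.8 and 13.1 CPM without choroid plexus nuclei, with smaller SDs in all 3 groups.

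Of the other genes of these pathways, fixed as a list of related receptors, signalling genes, oxytocin processing genes and ligands, 31 could be tested in the whole punch and 30 in at least 1 class. None was called in either direction in any comparison, by edgeR or DESeq2, in 31 tests per comparison in the whole punch and 440, 461 and 467 tests within classes for control RE against NP, stress RE against control RE and stress RE against NP. At an unadjusted p of 0.05, edgeR passed 40, 17 and 35 of the tests within classes, or 9.09%, 3.69% and 7.49%, against 3.19%, 2.93% and 3.76% of the tests over all genes in the same comparisons. DESeq2 passed 34, 15 and 27 (7.73%, 3.25% and 5.78%), against 2.29%, 2.04% and 2.85% over all genes. In the whole punch edgeR passed 2, 0 and 2 of the 31 tests (6.45%, 0% and 6.45%) and DESeq2 2, 0 and 3 (6.45%, 0% and 9.68%), against 3.98%, 0.850% and 4.02% over all genes by edgeR and 4.31%, 0.936% and 4.50% by DESeq2. Within classes, for control RE and stress RE against NP, the share was above that over all genes by more than 1.5 times by both tools, a description without a test, and these tests share genes, classes and NP mice. The median log2 difference of the tests within classes was -0.05, -0.01 and -0.03.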

How the data were processed

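Nuclei from dHF micropunches of 15 female mice were profiled with 10x 3′ chemistry, 1 library per mouse. The deposited values were whole-number UMI counts per gene and barcode, which the authors made with Cell Ranger (7.1.0 per the submitters' processing notes) against mm10, as filtered matrices without removal of background RNA or doublets. Whether intronic reads were counted is not given in the sources used here. Barcodes with at least 200 genes and at most 5% mitochondrial counts were kept, and the highest Scrublet scores (0.8% per 1000 barcodes, 9993 barcodes) were removed as doublets. Nuclei were clustered in scanpy 1.11.5 (2000 variable genes without the 4 receptors, 30 principal components, Leiden resolution 1) and named from marker lists, by thresholds chosen once cluster contents were known. The members, lists and motifs were chosen with earlier results of these data known. The rule for named genes took the 4 receptors in every class, genes of the pathway list with their counts, and the 5 genes most like each receptor over class means among genes of at least 5 CPM in their highest class.

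Levels used mice with at least 10 nuclei of a class, and classes with at least 3 such mice. Classes were compared over mice with two-sided exact sign permutation tests (scipy 1.17.1) on log2(CPM + 1). Groups were compared on counts summed per mouse with the quasi-likelihood test of edgeR 4.0.16 (TMM scaling, filterByExpr, all 3 groups in the fit), which was tested on simulated data first. DESeq2 1.42.0, RLE scaling, no filter, a batch term, kept doublets, resolution 2, thinning to 1000 UMIs and leaving out each mouse were the alternatives, with 3 more chosen after seeing the data. Intervals are 95% and depths were 40602582 to 96211264 UMIs per library. Labels number the mice singly, and each mouse was taken as 1 replicate.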

Additional observations from a re-analysis of the deposited data

Results flagged for a closer look

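Of 57 groups of 4 to 6 mice examined, 3 had a mouse far from the others by Dixon's ratio at the 95% level, where chance alone would set apart about 1 in 20. Prlr in CA2 pyramidal neurons stood at 45.8 CPM in NP mouse 35, from 13 UMIs summed over its 14 CA2 nuclei, while the other NP mice lay at 0 to 2.70 CPM. The same mouse had the highest share of its Prlr UMIs in choroid plexus nuclei, 51.1%. Its CA2 nuclei held 3 Ttr UMIs beside the 13 Prlr UMIs. Choroid plexus nuclei of all mice pooled held 9.08 Prlr UMIs per 100 Ttr UMIs. The source of the 13 Prlr UMIs was not tested. Prlr in dentate granule neurons stood at 14.7 CPM in control RE mouse 88, while the other control RE mice lay at 11.3 to 11.7 CPM. Avpr1a in the whole punch stood at 0.222 CPM in stress RE mouse 75, from 14 UMIs, while the other stress RE mice lay at 0.0406 to 0.0924 CPM. That mouse supplied 137 of the 259 nuclei of the Cpa6 and Ano2 cluster, which held 7 of its 14 Avpr1a UMIs.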

How the results depend on the processing

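Apart from leaving out mice, 231 alternative values kept their direction and side of the threshold (or, for levels, moved by less than the SD), and no alternative gave a receptor an adjusted p under 0.271 in a group comparison. Of 8 values that turned direction, 6 belonged to differences that had not passed and 2 to Lamp5 less granule neurons in Prlr, which had. With batch as a term, Prlr for stress RE against NP was -0.11 in choroid plexus, and for control RE against NP -0.18 in the GABAergic class led by Mecom and Pax3. With doublets kept, Avpr1b for stress RE against control RE was 0.021 in CA2 and 0.047 in the whole punch. Whole-punch Prlr for stress RE against NP was 0.011 without choroid plexus nuclei, and the choroid plexus share for stress RE against control RE was -0.066 on the log2 scale. Thinned to 1000 UMIs, Oxtr in Sst interneurons was 1.45 CPM and Avpr1a in the Cpa6 and Ano2 cluster 4.87 CPM, Lamp5 less granule neurons in Prlr was -0.040 and CA2 less subiculum in Avpr1b 1.14. Without its sub-cluster highest in Prlr, Lamp5 less granule neurons was -0.64, an alternative chosen after seeing the data. The causes were not tested.

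With each mouse left out in turn, the log2 difference for Prlr in choroid plexus ran from 0.14 to 0.62 (control RE against NP), -0.60 to -0.071 (stress RE against control RE) and -0.18 to 0.28 (stress RE against NP). It ran from -0.25 to -0.070 in granule neurons and -0.69 to -0.28 in Lamp5 interneurons (control RE against NP), -0.18 to 0.21 in the GABAergic class led by Mecom and Pax3 (control RE against NP) and -0.28 to 0.069 in Lamp5 interneurons (stress RE against NP). In the whole punch it ran from -0.43 to -0.086 for Prlr (control RE against NP), -0.035 to 0.31 (stress RE against control RE), -0.25 to 0.011 (stress RE against NP), -0.061 to 0.21 for Oxtr (control RE against NP), 0.13 to 0.47 (stress RE against control RE) and -0.33 to 0.12 for Avpr1b (stress RE against control RE). The choroid plexus share difference ran from -0.423 to -0.0777 (control RE against NP), -0.0227 to 0.25 (stress RE against control RE) and -0.313 to 0.0141 (stress RE against NP). No paired analysis was possible because each mouse number belongs to 1 group. Counts of 308 UMIs or fewer limit Oxtr, Avpr1a and Avpr1b.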

Other observations

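Nuclei outside the named classes also held receptor UMIs. The 4232 nuclei of unnamed clusters held 483 Prlr, 8 Oxtr, 3 Avpr1a and 2 Avpr1b UMIs. Interneurons that took no subtype, 689 nuclei, held 28 Oxtr UMIs, 9.09% of all Oxtr UMIs. Of these, 3 lay in a sub-cluster of 17 nuclei led by Sst, Tacr1, Chodl and Nos1, the genes of long-range Sst neurons, which also held 7 Prlr UMIs. These sub-clusters were singled out after their values were seen. Prlr and Avpr1a were found in 11 nuclei, Prlr and Avpr1b in 7, and Oxtr and Avpr1a in 1.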
